A study of Homo sapiens with 12 samples.

Results

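YAP1, its paralog WWTR1 (which encodes TAZ), the TEAD family genes TEAD1, TEAD2, TEAD3 and TEAD4, and the TEAD-binding gene VGLL4 were followed across cells in which TP63 had been knocked down. The rule takes these 7 genes by their symbols from the 18404 genes measured on the arrays. Each of the 7 was represented by 1 probe set. Gene expression had been measured on 12 Affymetrix Human Gene ST arrays from JHU-029 and FaDU, established cell lines from squamous cell carcinomas of the head and neck. Each line had received, by lentivirus, either shControl, the control vector, or shTP63, which targets TP63, and RNA was collected after 72 hours. The 4 groups were JHU-029 with shControl, JHU-029 with shTP63, FaDU with shControl and FaDU with shTP63, with 3 arrays each, and every culture had thus been through lentiviral delivery. The series concerns p63, the transcription factor encoded by TP63, together with ACTL6A, a subunit of SWI/SNF chromatin remodelling complexes, and their part in Hippo-YAP signalling of squamous tumours. The number and sequence of the shRNAs are not given in the sources used here, nor is whether each replicate was a culture of its own, so p-values reflect only the spread over these samples. Each line is a single cell line, and a difference between the lines stands for these lines alone. TP63 itself is not analysed here, so the knockdown was not checked on its target in either line, and each comparison is between arrays labelled shTP63 and shControl.

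YAP and TAZ are co-activators that bind no DNA themselves. They reach DNA through TEAD factors, which recognise a short CATTCC element, often beside AP-1 sites in enhancers. When the Hippo kinases MST and LATS are active, they phosphorylate YAP and TAZ, which are then held in the cytoplasm or degraded. VGLL4 binds TEADs through its Tondu domains, competes with YAP and TAZ for them and so acts as a repressor of their targets. In squamous epithelium this circuit favours proliferation of basal cells, and p63 is the factor that defines those cells. Regulation of YAP and TAZ is largely by phosphorylation and location, which an RNA measurement does not read.

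The reference sequences that lie just upstream of the genes are shown for YAP1 and VGLL4, the members with a change after knockdown. They come from RefSeq, build GRCh38.p14, and each holds the 250 bases before an annotated start, written 5′ to 3′ on the strand of the gene. Such windows were at hand for 5 of the 7 genes, 11 windows in all, with none used here for TEAD1 or TEAD4. Capitals in the YAP1 window (chr11:102110197-102110446, plus strand) mark the reverse complement of CATTCC, and capitals in the VGLL4 window (chr3:11643916-11644165, minus strand, the start numbered 2 of 5) mark a match to the p53 family half-site, a motif that p63 also recognises.
YAP1: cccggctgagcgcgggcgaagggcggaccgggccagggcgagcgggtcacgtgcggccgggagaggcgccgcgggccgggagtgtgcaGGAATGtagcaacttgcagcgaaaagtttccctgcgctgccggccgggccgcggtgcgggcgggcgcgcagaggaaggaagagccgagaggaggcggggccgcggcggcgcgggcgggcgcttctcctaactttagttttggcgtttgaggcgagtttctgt
VGLL4: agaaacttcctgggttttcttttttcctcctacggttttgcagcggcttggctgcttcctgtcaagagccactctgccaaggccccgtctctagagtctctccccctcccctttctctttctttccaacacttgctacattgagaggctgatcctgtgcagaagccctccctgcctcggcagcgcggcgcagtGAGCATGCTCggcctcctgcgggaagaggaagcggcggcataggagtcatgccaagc
The YAP1 window had a GC content of 72%, against a median of 58% over the 35116 windows of this length. It held CATTCC once, on the opposite strand, 162 to 157 bases before the start, and GGGCGG, the GC box, 3 times on the strand of the gene. YAP1-DT, a transcript of the opposite strand, starts 10 bases from the YAP1 start. In the VGLL4 window the p53 family half-site read GAGCATGCTC and lay 57 to 48 bases before the start. Of the 5 VGLL4 windows only the one printed held this motif, and the others held none. Which VGLL4 start these cells used was not determined. On either strand, CATTCC was present in 11.9% of all windows, TGANTCA, the AP-1 element, in 6.57%, the p53 family half-site in 5.57% and GGGCGG in 42.6%. Among the 11 windows of the members the counts were 1, 0, 1 and 6. The motifs do not overlap one another in the windows printed. Neither of the 2 WWTR1 windows held any of the 4 motifs. These are matches of letters in short windows, and no binding was measured.

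The arrays of a group were close to each other. On the log2 scale, Pearson's r was 0.996 to 0.998 between arrays of a group and 0.910 to 0.925 between arrays of different lines. The array median on the log2 scale was 6.46 to 6.51 in JHU-029 and 6.52 to 6.56 in FaDU. All 8 measured epithelial markers lay above the array median in 3 groups and 7 of 8 did in FaDU shTP63, where PKP1, a desmosome plaque gene, averaged 6.42. Of 6 fibroblast, 5 immune and 5 endothelial markers, 1 or 2 of each list lay above it in every group. Marker levels moved with knockdown in FaDU, and their part in the FaDU results was not tested. The summed linear intensity of the 8 epithelial markers was 21910 to 22178 on the FaDU shControl arrays and 15749 to 16016 on the shTP63 arrays. Of the 8, 5 fell (KRT5, KRT14, DSP, PKP1 and SFN), among them KRT5 by 1.41 and SFN by 1.07 (changes of -1.41 and -1.07). CDH1 (-0.04), EPCAM (0.04) and JUP (-0.05) did not pass. Of all genes, 14.2% were called lower in FaDU, 12.4% higher and 26.6% in either direction. The endothelial sum was 662 to 679 with shControl and 1037 to 1117 with shTP63, with 1 of 5 called, CDH5 (means of 8.69 and 9.69). The immune sum was 1976 to 2038 and 2100 to 2366, with 2 of 5 called higher, CD14 (6.66 and 7.17) and LYZ (4.13 and 4.89, below the array median). Most of that sum is CD68 (10.85 and 10.96), which was not called (0.11, adjusted p = 0.196, limma). Of the 6 fibroblast markers 0 were called in FaDU. In JHU-029 the epithelial sums overlapped, at 33990 to 36158 and 32424 to 34427, with 1 of 8 called, higher (0 without any 1 of the 3 shControl arrays or shTP63 replicate 2 or 3), and 0 of the fibroblast, immune and endothelial markers were called. There, 1.8% of all genes were called higher and 3.15% in either direction. In RNA from whole cultures, fewer cells of a type and less RNA per cell cannot be told apart.

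YAP1 (probe set 7943398) was lower after TP63 knockdown in both lines. In JHU-029 its log2 intensity was 10.83, 10.82 and 10.78 on the shControl arrays and 10.55, 10.61 and 10.55 on the shTP63 arrays. In FaDU it was 10.81, 10.77 and 10.79 with shControl and 10.33, 10.33 and 10.29 with shTP63. Every knockdown array lay below every control array of its line, and the FaDU knockdown arrays lay lowest of all. Group means were 10.81 ± 0.0277 and 10.57 ± 0.0354 in JHU-029, and 10.79 ± 0.0217 and 10.32 ± 0.0266 in FaDU (SD, n = 3 arrays). YAP1 fell by 0.24 in JHU-029 (1.18-fold, SE 0.0472, 95% interval -0.34 to -0.14, adjusted p = 0.0172, limma) and by 0.47 in FaDU (1.39-fold, SE 0.0472, interval -0.58 to -0.37, adjusted p = 1.33e-05). In a test of the difference itself, the fall was larger in FaDU by 0.24 on the log2 scale (interval -0.38 to -0.09, adjusted p = 0.0358). The FaDU call held in all 24 alternative analyses, with adjusted p values from 1.14e-08 to 0.00143. The JHU-029 call was lost without any 1 of the 3 JHU-029 shControl arrays (adjusted p = 0.0789, 0.0827 and 0.0576 for replicates 1, 2 and 3), without shTP63 replicate 3 (0.079) and with a replicate block within each line (0.125), and the size of the change stayed within 1.5 times. The call on the difference between the lines was lost in 15 of 23 alternatives, while its value stayed between -0.25 and -0.18 in all 23 (adjusted p up to 0.129). Only the 3 scalings and the fits that left out arrays could change this value, and the other alternatives leave it as it is. Among the 15 were 9 of the 12 that left out 1 array (all but JHU-029 shTP63 replicate 1, FaDU shControl replicate 2 and FaDU shTP63 replicate 1).

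**Figure D1:**
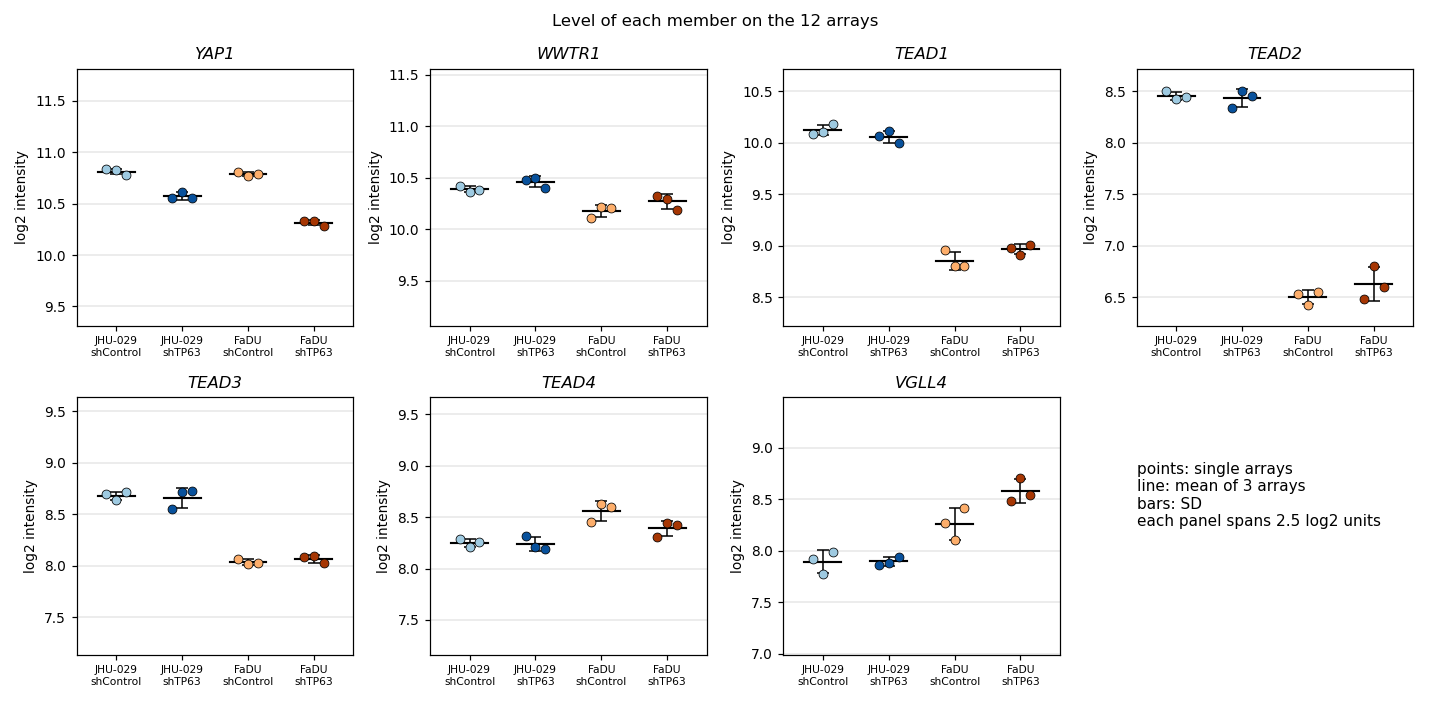
Log2 intensity of YAP1, WWTR1, TEAD1, TEAD2, TEAD3, TEAD4 and VGLL4 on the 12 arrays, 1 panel per gene, with the 4 groups along the horizontal axis. Points are single arrays, the line is the mean of 3 arrays and bars are the SD. YAP1 is lower with shTP63 in both lines, from 10.81 to 10.57 in JHU-029 and from 10.79 to 10.32 in FaDU, while the TEAD1 and TEAD2 panels separate the lines.

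WWTR1 (probe set 8091422), which encodes the YAP paralog TAZ, did not pass the test in either line. Its log2 intensity in JHU-029 was 10.42, 10.37 and 10.39 with shControl and 10.48, 10.50 and 10.40 with shTP63. In FaDU it was 10.11, 10.21 and 10.21 with shControl and 10.33, 10.30 and 10.19 with shTP63. Control and knockdown arrays overlapped in both lines. The differences were 0.07 in JHU-029 (interval -0.05 to 0.19, adjusted p = 0.678) and 0.10 in FaDU (interval -0.03 to 0.22, adjusted p = 0.259), so in neither line did the interval reach a fall as large as that of YAP1. Within each array the log2 difference between YAP1 and WWTR1, whose change over arrays can be read although its level cannot, was lower after knockdown by 0.31 in JHU-029 and by 0.57 in FaDU (changes of -0.31 and -0.57), and control and knockdown arrays did not overlap. The same held for YAP1 against TEAD1 (-0.17 and -0.59), against TEAD4 (-0.23 and -0.31) and against VGLL4 (-0.24 and -0.79). Each of these differences contains the fall of YAP1 itself, so they are not results apart from it. YAP1 against TEAD2 or TEAD3 was not computed, nor was the share of all genes that would give such a separation.

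Of the DNA-binding partners, no TEAD gene passed the test after knockdown in either line. TEAD1 (probe set 7938544), read at 10.09, 10.10 and 10.18 in JHU-029 shControl, was 10.06, 10.11 and 10.00 in JHU-029 shTP63. In FaDU its values were 8.96, 8.80 and 8.81 with shControl and 8.98, 8.91 and 9.01 with shTP63. Knockdown and control arrays overlapped in both lines, with differences of -0.06 (interval -0.20 to 0.07, adjusted p = 0.734) and 0.11 (interval -0.02 to 0.25, adjusted p = 0.197). TEAD2 (probe set 8038347) read 8.50, 8.43 and 8.44 with shControl and 8.34, 8.51 and 8.46 with shTP63 in JHU-029. Its FaDU values, 6.53, 6.42 and 6.55 with shControl and 6.48, 6.81 and 6.60 with shTP63, lay near the FaDU array medians of 6.52 to 6.56. TEAD2 differed by -0.02 in JHU-029 (interval -0.20 to 0.15, adjusted p = 0.948) and by 0.13 in FaDU (interval -0.05 to 0.30, adjusted p = 0.282).

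TEAD3 (probe set 8125887) and TEAD4, the other TEAD genes, missed the threshold as well. TEAD3 read 8.70, 8.64 and 8.71 in JHU-029 shControl and 8.55, 8.71 and 8.72 in JHU-029 shTP63, then 8.07, 8.02 and 8.03 in FaDU shControl and 8.08, 8.09 and 8.02 in FaDU shTP63. The differences were -0.02 (interval -0.15 to 0.10, adjusted p = 0.936) and 0.03 (interval -0.09 to 0.16, adjusted p = 0.760). TEAD4 (probe set 7953150) read 8.28, 8.21 and 8.26 with shControl and 8.32, 8.21 and 8.19 with shTP63 in JHU-029, a difference of -0.01 (interval -0.15 to 0.13, adjusted p = 0.971). In FaDU it read 8.45, 8.63 and 8.59 with shControl and 8.31, 8.44 and 8.43 with shTP63. All 3 FaDU knockdown arrays lay below the 3 controls, by a gap that was small beside the spread of the arrays. The FaDU difference of -0.17 (interval -0.31 to -0.02) missed the threshold with an adjusted p of 0.0814, and passed it without FaDU shControl replicate 1 (-0.22, adjusted p = 0.0285) and with dim genes left out (0.0458).

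VGLL4 (probe set 8085340), the repressor that competes for TEADs, was the other member to pass in FaDU, in the opposite direction to YAP1. It read 8.27, 8.10 and 8.42 in FaDU shControl and 8.48, 8.71 and 8.55 in FaDU shTP63. All knockdown arrays lay above all controls, and the means were 8.26 ± 0.157 and 8.58 ± 0.117 (SD, n = 3 arrays). VGLL4 rose by 0.32 in FaDU (1.25-fold, SE 0.0876, interval 0.13 to 0.51, adjusted p = 0.0169). In JHU-029 it read 7.92, 7.77 and 7.99 with shControl and 7.86, 7.88 and 7.94 with shTP63, groups that overlapped, with a difference of 0.00 (interval -0.19 to 0.19, adjusted p = 0.995). The difference between the lines, 0.31 (interval 0.05 to 0.58), did not pass the threshold (adjusted p = 0.126). The FaDU call was lost without FaDU shControl replicate 2 (0.24, adjusted p = 0.0659), without FaDU shTP63 replicate 2 (0.25, 0.0708) and in a fit of FaDU alone (0.0588). It was also lost without the 2 FaDU shControl arrays whose titles carry an extra word (replicates 1 and 2), where 1 control array remained and the value was 0.16 (adjusted p = 0.335).

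In JHU-029, 1 of the 7 members passed the test after knockdown, a fall, where 3.15% of all 18404 genes passed in either direction, 1.8% higher and 1.35% lower. In FaDU, 2 of 7 passed, 1 in each direction, where 26.6% of all genes passed, 12.4% higher and 14.2% lower. The share of members in FaDU was thus near that of all genes, and with 7 members a single gene decides such a share. YAP1 fell in both lines, as did 0.853% of all genes. Control and knockdown arrays did not overlap for 1 member in JHU-029 (24.9% of all genes) and for YAP1, TEAD4 and VGLL4 in FaDU (36.1% of all genes). Both the median change of the members and that of all genes were small: -0.02 against 0.00 in JHU-029, and 0.10 against 0.02 in FaDU. In the test of the difference between the lines, 1 of 7 members passed, where 13.2% of all genes did, 4.97% higher and 8.25% lower.

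**Figure D2:**
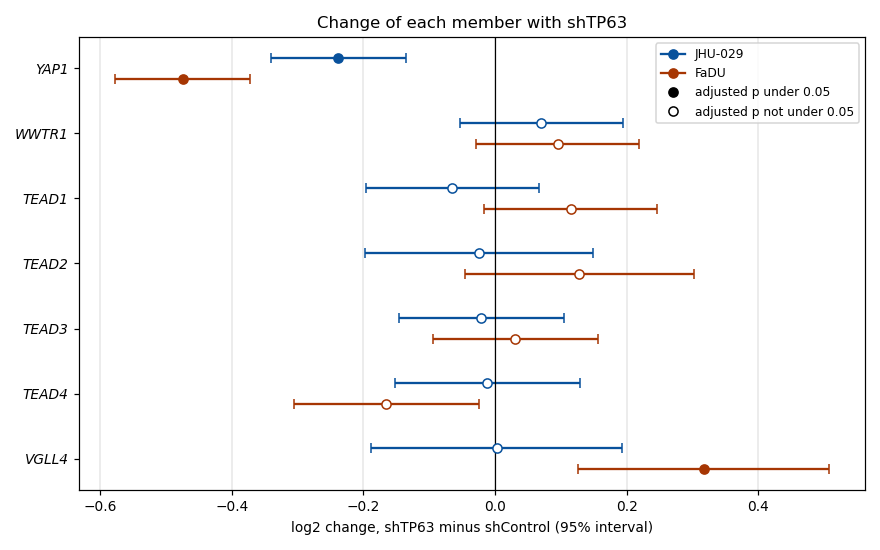
Log2 change of each member after TP63 knockdown (shTP63 minus shControl) in JHU-029 and in FaDU, with 95% intervals from the fit, n = 3 arrays per group. Filled points had an adjusted p under 0.05. They are YAP1 in JHU-029 (-0.24), and YAP1 (-0.47) and VGLL4 (0.32) in FaDU.

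TEAD1, TEAD2 and TEAD3 each differed between the lines by more than any member's fitted change after knockdown. Under the control vector, TEAD2 was lower in FaDU by 1.96 on the log2 scale (a change of -1.96, 3.88-fold, SE 0.0798, adjusted p = 2.58e-10). TEAD1 differed by -1.27 (2.41-fold, SE 0.0604, adjusted p = 1.04e-09), TEAD3 by -0.65 (1.56-fold, adjusted p = 4.54e-07) and WWTR1 by -0.22 (1.16-fold, adjusted p = 0.00492). TEAD4 and VGLL4 were higher in FaDU, by 0.31 (1.24-fold, adjusted p = 0.00103) and 0.37 (1.29-fold, adjusted p = 0.00246). For these 6 genes the control arrays of the lines did not overlap, as for 69% of all genes. YAP1 was the exception, with overlapping arrays and a difference of -0.02 (interval -0.12 to 0.08, adjusted p = 0.708). Thus 6 of 7 members passed, 4 lower and 2 higher, where 63.8% of all genes passed, 30.4% lower and 33.4% higher. The split over all genes depends on the scaling. Of the genes called, 52.4% were higher in FaDU, and 46.2% with each array centred on its median, where the member counts stayed the same. The WWTR1 difference was -0.19 without the 2 FaDU shControl arrays with an extra title word, and no longer called (adjusted p = 0.0696).

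After knockdown all 7 members differed between the lines, 2 higher and 5 lower in FaDU, where 69% of all genes did, 37.3% higher and 31.7% lower. Of the genes called, 54.1% were higher in FaDU, and 46.9% with each array centred on its median. The arrays of the lines did not overlap for 6 of the 7, as for 71.2% of all genes. YAP1 had become lower in FaDU than in JHU-029, by 0.26 (a difference of -0.26, 1.20-fold, adjusted p = 0.000332). TEAD2 differed by -1.80 (3.49-fold, adjusted p = 4.87e-10), TEAD1 by -1.09 (2.13-fold, adjusted p = 4.02e-09), TEAD3 by -0.59 (1.51-fold, adjusted p = 9.76e-07) and WWTR1 by -0.19 (1.14-fold, adjusted p = 0.00959). VGLL4 was higher in FaDU by 0.68 (1.61-fold, adjusted p = 1.43e-05). TEAD4 was higher by 0.15 (1.11-fold, adjusted p = 0.0491), but its arrays overlapped, and the call was lost in 12 of 22 alternatives. Among these were 8 of the 12 that left out 1 array (all 3 JHU-029 shControl arrays, FaDU shControl replicate 3, and replicates 2 and 3 of both shTP63 groups, adjusted p up to 0.151), and centring each array on its median, where the value was 0.08 (adjusted p = 0.286). The WWTR1 call was lost under a further quantile normalization (adjusted p = 0.0662). The knockdown comparisons share their arrays with these comparisons of the lines.

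**Figure D3:**
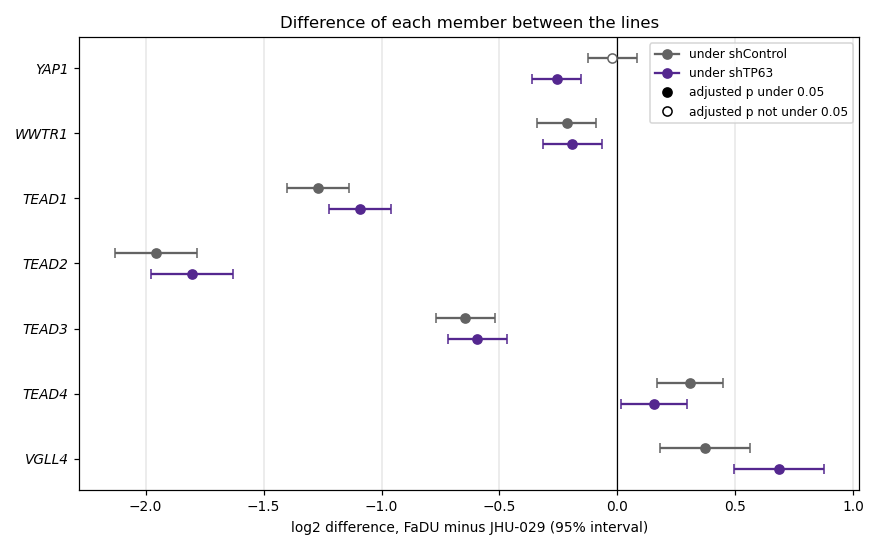
Log2 difference between FaDU and JHU-029 for each member, with shControl and with shTP63, with 95% intervals from the fit, n = 3 arrays per group. Filled points had an adjusted p under 0.05. TEAD2 and TEAD1 lie farthest below 0, at -1.96 and -1.27 with shControl, and YAP1 with shControl is the open point, at -0.02.

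In the order of its 4 group means, YAP1 ran from JHU-029 shControl and FaDU shControl, which did not differ beyond their spread, through JHU-029 shTP63 to FaDU shTP63. For TEAD1, TEAD2 and TEAD3 both JHU-029 groups came first and both FaDU groups last, and within a line the neighbours did not differ beyond their spread. WWTR1 followed that order too, with JHU-029 shTP63 at 10.46 ± 0.0526 and FaDU shControl at 10.18 ± 0.0575 as its ends. VGLL4 ran the other way, from 8.58 ± 0.117 in FaDU shTP63 and 8.26 ± 0.157 in FaDU shControl to 7.90 ± 0.0405 and 7.89 ± 0.113 in JHU-029. TEAD4 was highest in FaDU shControl, at 8.56 ± 0.0975, followed by FaDU shTP63 at 8.39 ± 0.0719 and by the JHU-029 groups at 8.25 ± 0.0406 and 8.24 ± 0.0684.

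The pairs among TEAD1, TEAD2 and TEAD3 correlated over the 12 arrays at 0.985 to 0.991, which describes the separation of 2 lines rather than 12 independent points. Once group means were removed, the same 3 pairs correlated at -0.15 to 0.50, and all 21 pairs of members at -0.51 to 0.70. Among 9202 genes with a mean at or above the median, the genes whose levels over the 12 arrays were most like YAP1 were TMEM109 (Pearson r 0.989), DPH2 (0.985) and ZMPSTE24 (0.982). TMEM109 averaged 11.20 and 10.43 in JHU-029 with shControl and shTP63, and 11.03 and 9.49 in FaDU, the same order of groups as YAP1 within each line. Most like VGLL4 were GLCE (0.986), SAMD8 (0.981) and PNPLA6 (0.977), and most like TEAD4 were CD320 (0.964), MRPS34 (0.954) and MRPS2 (0.949). For TEAD1 the nearest were AHR, NNT and DPF1 (each 0.997), for TEAD2 DNAAF9 (0.999), TMEM230 (0.999) and DYM (0.998), for TEAD3 DNAJB2 (0.995), HOXC13 (0.994) and PARP16 (0.994), and for WWTR1 NT5C2 (0.950), ZNF774 (0.950) and PRSS16 (0.949). These correlations rest on 4 groups in 2 lines and carry no test. Under 3 other scalings the nearest genes were partly others: of the 3 named for a gene, 2 or 3 remained for YAP1 and VGLL4, and 0 to 3 for the rest.

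The genes that act on YAP and TAZ were read from lists of the same pathway, chosen with earlier results of these data known. None of the 12 Hippo kinases and their adaptors passed in JHU-029 by limma at an adjusted p of 0.05, where 3.15% of all genes did, while in FaDU 4 rose and 1 fell, where 12.4% and 14.2% of all genes did. The list median in FaDU was 0.11, against 0.02 for all genes. LATS2, which encodes a kinase that phosphorylates YAP and TAZ directly, went from 8.02 to 8.45 in FaDU (0.43, SE 0.0611, adjusted p = 0.000206). Its relative LATS1 did not pass in FaDU (0.12, adjusted p = 0.259) or in JHU-029 (-0.12, adjusted p = 0.520). TAOK1, an upstream kinase gene, rose by 0.27 (adjusted p = 0.0174). NF2, which encodes the membrane adaptor merlin, fell by 0.48, from 9.64 to 9.16 (a change of -0.48, adjusted p = 1.2e-05). The list's count of 5 in FaDU was 2 to 4 when 1 array was left out (3 or fewer without each array other than JHU-029 shTP63 replicate 1), and TAOK1 was lost without FaDU shControl replicate 3 (adjusted p = 0.0722) or FaDU shTP63 replicate 3 (0.0522). LATS2 and NF2 kept their calls in all 24 alternatives.

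Among scaffolds and regulators, of which 14 of 15 were measured, 1 rose in JHU-029 (1.8% of all genes), and 4 rose and 3 fell in FaDU (12.4% and 14.2% of all genes). WWC1, which encodes the Hippo activator KIBRA, rose in both lines, by 0.32 in JHU-029 (adjusted p = 0.0182) and by 0.53 in FaDU (adjusted p = 6.02e-05). The gene AMOT, which encodes an angiomotin that binds YAP, rose from 5.57 to 6.35 in FaDU (0.78, adjusted p = 4.98e-05), a probe set whose group means all lay below the array median. Its relative AMOTL1 fell by 0.99 (a change of -0.99, adjusted p = 1.29e-06), and FRMD6, which encodes a FERM-domain protein placed upstream of the Hippo kinases, fell by 1.19 (-1.19, adjusted p = 2.62e-07). In JHU-029 the call of WWC1 was lost without shControl replicate 2 (adjusted p = 0.0971), shControl replicate 3 (0.0583) or shTP63 replicate 2 (0.0904), and with a replicate block within each line (0.0945).

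Of the genes that hold YAP and TAZ in the cytoplasm or lead to their breakdown, 9 of 10 were measured, with 1 fall in JHU-029 (1.35% of all genes), and 1 rise and 3 falls in FaDU (12.4% and 14.2% of all genes). BTRC, which encodes the ubiquitin ligase subunit that takes phosphorylated YAP and TAZ to degradation, fell in both lines, from 8.52 to 8.07 in JHU-029 (-0.45, adjusted p = 0.00122) and from 7.97 to 7.24 in FaDU (-0.73, adjusted p = 1.75e-06). SFN, a 14-3-3 gene that is also on the list of epithelial markers, fell by 1.07 in FaDU (a change of -1.07, adjusted p = 1.48e-07), and the 14-3-3 gene YWHAE rose by 0.17 (adjusted p = 0.0184). The YWHAE call was lost without FaDU shControl replicate 2 (0.15, adjusted p = 0.0597), with arrays centred on their medians (0.0544), with each line fitted alone (0.098), with a replicate block within each line (0.0695) and without the 2 controls with an extra title word (0.149).

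The products of the VGLL genes share the TEAD-binding Tondu domain. Of the 3 measured besides VGLL4, 0 passed in JHU-029, where 3.15% of all genes did. In FaDU 2 rose, where 12.4% of all genes rose. VGLL1, a co-activator of TEADs in epithelium, went from 8.88 to 9.92 in FaDU (1.04, SE 0.107, adjusted p = 1.68e-05), and was at 5.30 and 5.29 in JHU-029, below the array median. VGLL2 went from 5.54 to 5.99 in FaDU (0.45, adjusted p = 0.000259), also below it. Of the 7 AP-1 genes, whose products bind beside TEADs, 0 passed in JHU-029, where 3.15% of all genes did. In FaDU 2 passed, a share of the 7 near the 26.6% of all genes called there. Both fell, where 14.2% of all genes fell. FOSL1 fell from 10.01 to 9.56 (a change of -0.44, adjusted p = 0.000168). FOSB, close to the array median at 6.80 and 6.58, fell by 0.22 (-0.22, adjusted p = 0.0424), a call lost in 16 of 24 alternatives, among them 9 of the 12 that left out 1 array (replicates 2 and 3 of JHU-029 shControl, all 3 FaDU shControl arrays, JHU-029 shTP63 replicates 2 and 3, FaDU shTP63 replicates 1 and 3).

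Of the 22 genes of a YAP/TAZ target signature, all measured, more rose than fell in FaDU. The list was chosen with earlier results of these data known, so its counts are not independent of them. In JHU-029, 2 of the 22 rose and 1 fell, where 1.8% of all genes rose and 1.35% fell. In FaDU 13 rose and 2 fell, where 12.4% of all genes rose and 14.2% fell. The list median was 0.05 in JHU-029 and 0.24 in FaDU, against 0.00 and 0.02 for all genes. TGFB2, a secreted growth factor gene, rose by 0.42 in JHU-029 (adjusted p = 0.0045) and by 1.24 in FaDU (adjusted p = 1.08e-07). AXL, a receptor tyrosine kinase gene, rose by 0.48 (adjusted p = 0.00418) and 0.28 (adjusted p = 0.0138). CCDC80 rose by 1.13 in FaDU (adjusted p = 5.73e-06), while FJX1 and GADD45A, a stress-response gene, fell by 1.33 and 1.18 there (changes of -1.33 and -1.18, adjusted p = 1.43e-06 and 7.33e-08). NT5E, which encodes a cell-surface nucleotidase, fell in JHU-029 by 0.45 (-0.45, adjusted p = 0.0119) and rose in FaDU by 0.37 (adjusted p = 0.00553). LATS2 and AMOTL2 are among the signature genes that are also on the Hippo lists, and both are counted in the 13. The NT5E call in JHU-029 was lost without shControl replicate 2 (adjusted p = 0.056) or 3 (0.065), that of AXL in FaDU without FaDU shTP63 replicate 3 (0.24, adjusted p = 0.0566) or the 2 controls with an extra title word (0.108), and that of TGFB2 in JHU-029 with a replicate block within each line (0.0527). ACTL6A, named in the title of the series, did not pass in either line, at 0.00 in JHU-029 (interval -0.13 to 0.14, adjusted p = 0.990), where 2 of the other scalings gave a value below 0, and at -0.06 in FaDU (interval -0.19 to 0.07, adjusted p = 0.536).

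**Figure D4:**
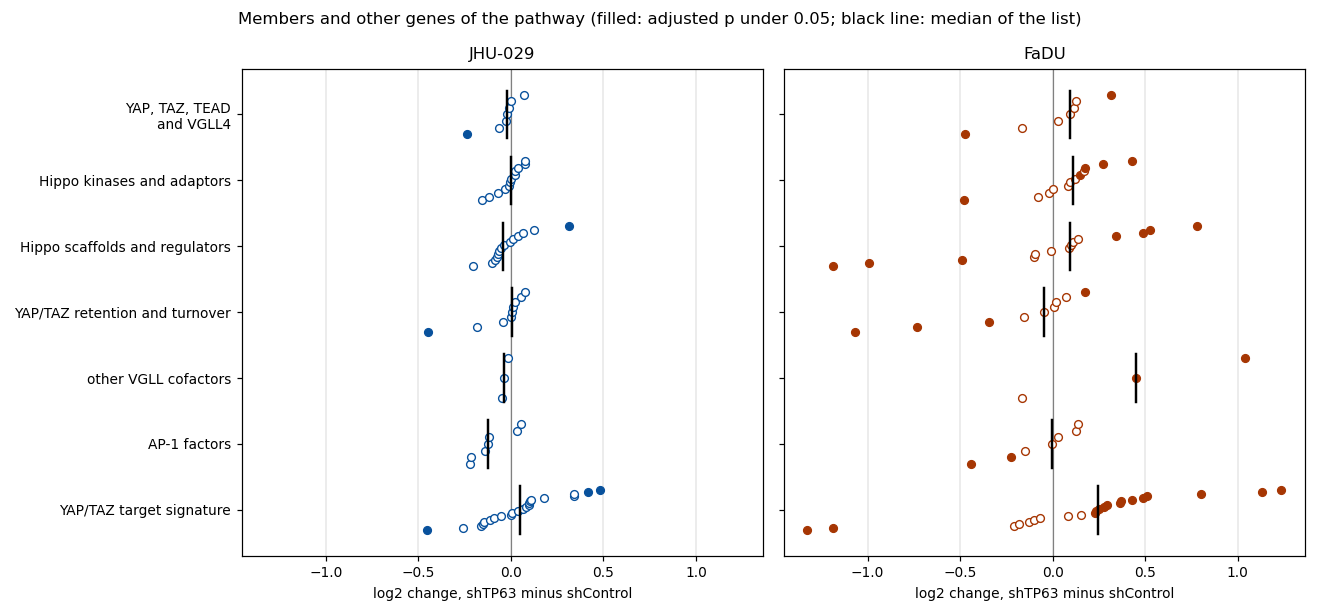
Log2 change after TP63 knockdown of the members and of each measured gene in 6 lists around YAP, TAZ and TEAD, in JHU-029 and in FaDU. Each point is 1 gene, filled where its adjusted p was under 0.05, and the black line is the median of the list. A gene on more than 1 list is drawn in each. In FaDU the target signature has its median at 0.24 with 13 of 22 genes called higher, where 12.4% of all genes were. VGLL1, at 1.04, is the highest of the other VGLL genes.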

How the data were processed

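The deposited table held linear intensity, made by the authors with robust multi-array averaging (RMA). Per the submitters' processing notes, the tools were RMA and R 2.15.1. The RMA implementation, probe set definition, genome build and whether all arrays were normalised together are not given in the sources used here. RMA usually gives arrays one common distribution, in which a change shared by most genes is not visible. Here the log2 array medians were all lower in JHU-029 (6.46 to 6.51) than in FaDU (6.52 to 6.56). The main fit did not rescale the arrays. Values were put on a log2 scale. Array medians were 88.2 to 94.6 over 32321 probe sets, of which 11775 had no entry in the array's table of symbols, 1388 had several symbols and 19158 had 1. RefSeq held 19128 of the last by Entrez ID, and 0 symbols changed. The probe set with the highest mean stood for a gene, giving 18404 genes. Symbols come from the array's annotation.

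All 12 arrays entered 1 linear model with a mean for each of the 4 groups (limma 3.58.1 under R 4.3.3, with 8 residual and 4.16 prior degrees of freedom). Moderated two-sided p-values were adjusted by Benjamini and Hochberg over 18404 genes per comparison, and called under 0.05, whatever the size of the change or the level of the gene. SE and intervals are from the fit. Precision is limited by the number of arrays.

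The members and lists were chosen with earlier results of these data known. Named were the members, ACTL6A, up to 2 genes per list, line and direction with the largest change past the threshold, genes past it the same way in both lines, and the 3 genes most like each member. Within a line, the deviations of arrays with the same replicate number correlated at -0.34 to 0.01, so the numbers were not taken as pairs. Arrays with different numbers correlated at -0.13 to 0.29 within a line and at -0.21 to 0.30 between the lines. What some arrays of different groups share was not tested. FaDU titles and descriptions number the replicates differently, and the descriptions were used. On simulated data with 200 of 18404 genes changed, log2 changes of 0.25, 0.5 and 1 were recovered for 25%, 74% and 100% in the JHU-029 comparison and for 22%, 72% and 100% in the FaDU comparison. The simulation held no other change, whereas 3.15% of genes were called in JHU-029 and 26.6% in FaDU. The adjustment depends on that share, so these rates do not carry over to the real comparisons, least of all to FaDU.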

Additional observations from a re-analysis of the deposited data

Results flagged for a closer look

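The fall of YAP1 after TP63 knockdown differed between the lines. In the test of the difference itself, the change in FaDU (-0.47) minus that in JHU-029 (-0.24) was -0.24 on the log2 scale (SE of each change 0.0472, adjusted p = 0.0358, limma), and the 3 knockdown arrays lay below the 3 control arrays in each line. No other member passed this test, and VGLL4 came nearest, at 0.31 (adjusted p = 0.126). The call on YAP1 was lost in 15 of 23 alternatives (adjusted p up to 0.129), while the value kept its sign and stayed between -0.25 and -0.18. Alternatives other than the scalings and the fits that left out arrays cannot change that value. With 3 arrays in a group, single arrays that stand apart were not tested for.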

How the results depend on the processing

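Of 24 alternatives, 12 left out 1 array each, which assumes that a thinned group varies like the others. The YAP1 fall in FaDU and the FaDU minus JHU-029 differences in level of TEAD1, TEAD2, TEAD3 and VGLL4, under either vector, kept their calls in all that gave a value. The count of members called in JHU-029, 1, became 0 with a replicate block within each line and was 0 to 1 without single arrays. In FaDU the count of 2 became 1 with each line fitted alone and without the 2 controls with an extra title word, and was 1 to 3 without single arrays. For the difference between the knockdown effects of the lines the count of 1 became 0 under quantile normalization (adjusted p of YAP1 0.0612 to 0.0932 over the 3 scalings), median centring, cyclic loess, both fixed replicate blocks (0.0689 and, within each line, 0.129) and without the 2 controls (0.101), and was 0 to 1 without single arrays. Over all genes, the 580 calls in JHU-029 became 882 with dim genes left out, 1015 with an intensity trend, 377 with a fixed replicate block and 172 with that block within each line, and 229 to 626 without single arrays. The 2433 calls on the difference became 1395 with the replicate block within each line. Among the members and ACTL6A, signs turned only for values near 0 that had passed no test. In JHU-029, VGLL4 was -0.0051 under quantile normalization, -0.0029 under cyclic loess, and -0.059 to 0.052 without single arrays. ACTL6A was -0.0073 and -0.0093 under these scalings and -0.029 to 0.025 without single arrays. Without single arrays, TEAD4 was -0.051 to 0.014, TEAD2 -0.061 to 0.024 and TEAD3 -0.052 to 0.035. On the difference between the knockdown effects, WWTR1 was -0.0081 to 0.067 without single arrays and -0.0051 without the 2 controls, and TEAD3 was -0.0051 to 0.082 without single arrays. Of the named genes of the lists, 2 of 5 called in JHU-029 and 16 of 20 called in FaDU kept their calls in every alternative. No sign of theirs turned. The cause of these changes was not tested. The mean of all probe sets of a gene, a robust prior and a random block (consensus correlation -0.0769) were also run.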
